A study of Rattus norvegicus with 12 samples.

Results

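The set described here holds 50 genes that had a lower level in every epileptic rat than in any control rat, in both the deep and the superficial sublayer of hippocampal area CA1. They were found among 10923 genes with a mean level of at least 5 CPM, out of 32662 Ensembl gene identifiers counted. CPM is the count of a gene per 1000000 gene counts of its library, here computed without the 2 most abundant identifiers. A gene was taken when, in each sublayer, its highest epileptic CPM times 1.2 did not exceed its lowest control CPM, and when the SD of log2(CPM + 1) over the 3 epileptic libraries was below 0.8. The epileptic and control levels of these genes are therefore a description, and no test is attached to them. The deposited tables and the gene table at hand do not pair the identifiers with gene symbols (0 of 32662 matched), so no function is assigned to a member, and no marker list could be applied to check the labelled tissue or the other cell types it may hold.

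RNA was sequenced from the CA1 pyramidal cell layer of adult male Wistar rats, in which laser microdissection of 20 µm sections separated the deep from the superficial cell bodies. Epileptic rats received hourly intraperitoneal kainate at 5 mg/kg until status epilepticus, which was ended with 4 mg/kg diazepam, and were sampled 6 to 8 weeks later, when the model is in its chronic phase. Control rats received vehicle, either saline or DMSO, and handling like that of the epileptic rats. Both sublayers came from each of 3 control and 3 epileptic rats, giving 12 libraries in 4 groups of 3. The labels give an age of 45 to 50 days and a weight of 180 to 200 g for all animals, without saying whether these apply at treatment or at sampling, and state that seizures were seen in handling or, in some rats, recorded electrophysiologically, and never in controls.

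CA1 pyramidal neurons are the main output cells of the hippocampus proper. They lie in a layer with a deep edge toward the stratum oriens and a superficial edge toward the stratum radiatum, and the cells at these edges differ in birth date, inputs and firing. Kainate activates ionotropic glutamate receptors, and the status epilepticus it causes is followed by cell loss, gliosis and recurrent seizures, so the tissue cut from an epileptic layer need not hold the same mixture of cells as that from a control layer. In such bulk samples, fewer cells of a type and less RNA per cell cannot be told apart.

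The libraries held 16135358 to 25893962 gene counts, with 16135358 to 19550582 in control and 20623196 to 25893962 in epileptic libraries. The lowest count of any member in any library was 12. Of all alignments, 35.8 to 44.0% were tallied as matching no annotated feature in control libraries. Epileptic animal 1 lay within that range, at 43.0% in deep and 37.7% in superficial CA1, while animals 2 and 3 lay at 22.3 to 26.7%. Non-unique alignments made up 25.9 to 34.8% in control libraries. Their share was 25.2% in deep and 30.6% in superficial CA1 of epileptic animal 1, and 37.9 to 45.6% in animals 2 and 3. The largest single identifier, left out of CPM, held 8.24 to 12.97% of the gene counts in control and 11.0 to 22.8% in epileptic libraries. The parts that library make-up and cell make-up play in the members' levels were not tested.

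ENSRNOG00000059081 was the member with the largest difference, when members were ordered by the weaker of their 2 sublayer differences. In deep CA1 it had 23.2, 21.1 and 17.8 CPM in control animals 1, 2 and 3, and 1.54, 4.77 and 2.22 CPM in epileptic animals 1, 2 and 3. In superficial CA1 the control values were 32.6, 36.4 and 28.6 CPM and the epileptic values 2.69, 7.19 and 5.37 CPM. The groups were far apart: the lowest control library was 3.74 times the highest epileptic library in deep and 3.98 times in superficial CA1. By group means, 20.7 ± 2.69 against 2.84 ± 1.70 CPM in deep CA1 (SD, n = 3 each), the level was 7.28-fold lower in epileptic rats. The superficial means of 32.5 ± 3.92 and 5.08 ± 2.27 CPM (SD, n = 3 each) differed 6.40-fold. Epileptic animal 1 had the lowest level in both sublayers and animal 2 the highest.

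ENSRNOG00000054809 came second, and its control libraries agreed closely. Its deep levels were 10.6, 9.46 and 9.57 CPM in control animals 1, 2 and 3 and 0.710, 2.15 and 1.82 CPM in epileptic animals 1, 2 and 3. Its superficial levels were 18.9, 20.2 and 19.6 CPM in control and 1.62, 3.12 and 2.11 CPM in epileptic animals. The gap between the lowest control and the highest epileptic library was 4.41-fold in deep and 6.06-fold in superficial CA1, the widest among the 50 members in both sublayers. Group means of 9.87 ± 0.611 and 1.56 ± 0.753 CPM in deep CA1 differed 6.33-fold, and those of 19.6 ± 0.658 and 2.28 ± 0.762 CPM in superficial CA1 differed 8.57-fold (SD, n = 3 each). As for the first gene, animal 1 was the lowest of the epileptic rats in both sublayers.

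**Figure D1:**
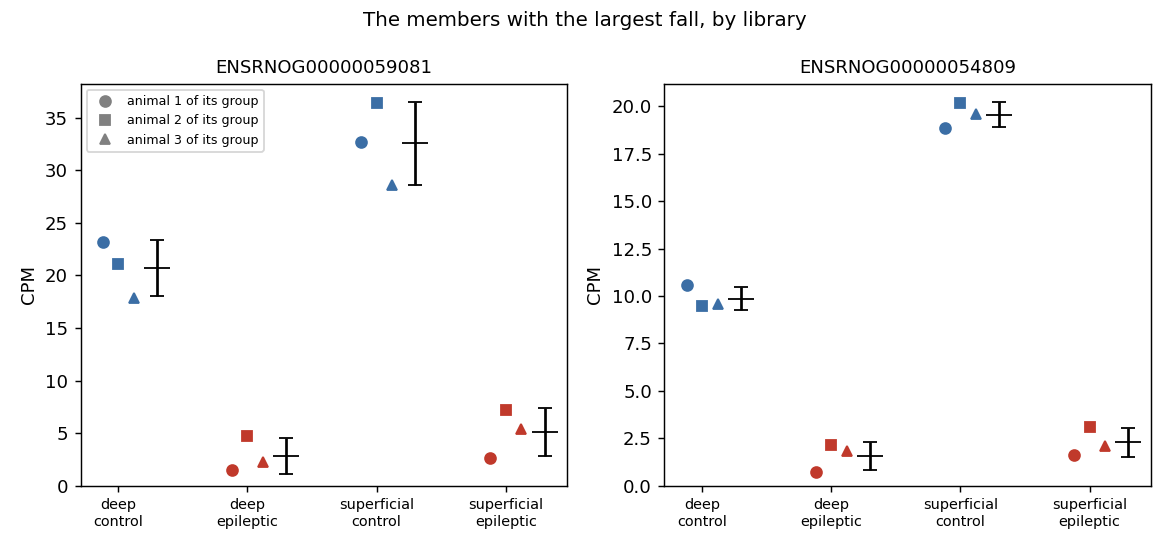
Levels in CPM (vertical axis, from 0) of the 2 members with the largest difference, in each sublayer and condition; points are single libraries, with the animal shown by shape, and the bar beside them is the mean ± SD of 3. The highest epileptic library reaches 7.19 CPM for the first and 3.12 CPM for the second gene, under every control library.

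Behind these 2 genes the differences were much smaller. A further 7 members were at least 2-fold lower by group means in both sublayers, by 2.03- to 3.22-fold in deep and 2.01- to 2.47-fold in superficial CA1, at mean levels of 5.88 to 224 CPM. At the other end, 16 of the 50 members were under 1.5-fold lower in both sublayers. Over the 50 members the difference in mean log2(CPM + 1), epileptic minus control, ran from −2.58 to −0.33 in deep CA1 with a median of −0.57. In superficial CA1 it ran from −2.67 to −0.36 with a median of −0.67. The medians over all 10923 genes were −0.00440 and 0.0126. Most of the set thus consists of modest differences, and their repetition in every animal is what the rule asks for.

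The members spanned the range of expression from 5.77 to 2936 CPM, with a median of 60.1 CPM against 36.3 CPM over all 10923 genes. Those below 10 CPM numbered 8, and 20 lay at or above 100 CPM, which is 40% of the set, against 21.0% of all genes of at least 5 CPM. The 2 most abundant had means of 2009.5 and 2936 CPM. The most abundant member showed how narrow the groups could be. It had 3351, 3215 and 3236 CPM in deep control libraries of animals 1, 2 and 3, and 2573, 2578 and 2618 CPM in deep epileptic libraries. In superficial CA1 the values were 3327, 3388 and 3286 CPM in control and 2628, 2554 and 2476 CPM in epileptic libraries. Its groups were 1.26-fold apart by means in deep and 1.31-fold in superficial CA1, without overlap. Together the 50 members made up 12904 to 13405 CPM in the control and 8857 to 9620 CPM in the epileptic libraries.

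The rule asks for a low level in each epileptic animal and limits the spread among them, so a likeness between the animals is largely built in. The median member lay below the control mean of its sublayer by a log2 difference of −0.58, −0.64 and −0.52 in deep libraries of epileptic animals 1, 2 and 3, and of −0.63, −0.69 and −0.56 in superficial libraries. In control libraries that median was −0.04 to 0.02. In deep CA1, 21 members were lowest in animal 1, 21 in animal 2 and 8 in animal 3. In superficial CA1 these numbers were 19, 19 and 12. The animal with the lowest level was the same in both sublayers for 33 of the 50 members, and both libraries of a pair come from 1 animal. Animal 3 was the least often lowest in both sublayers.

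**Figure D2:**
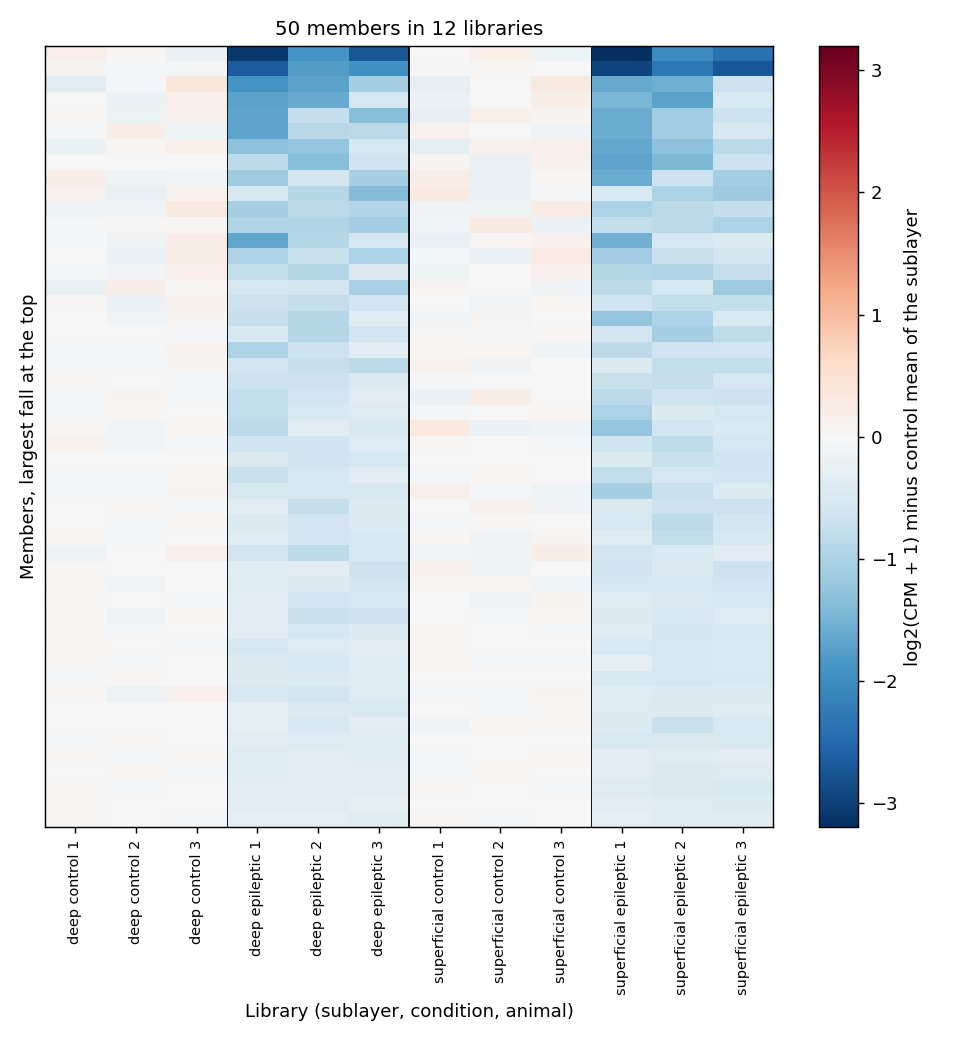
Each row is 1 of the 50 members, ordered from the largest (top) to the smallest difference, and each column 1 of the 12 libraries; colour gives log2(CPM + 1) minus the control mean of the sublayer, blue for lower and red for higher. Values in control columns run from −0.34 to 0.37. All 6 epileptic columns lie below 0 throughout, as the rule requires, with −0.29 as the weakest value. The lowest value in each of these 6 columns lies between −3.18 and −1.90.

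The 2 sublayers gave similar differences. The superficial difference was the larger in 32 of the 50 members, and in 42 members the 2 differences were within 0.2 of each other on the log2 scale. Across members, the superficial minus the deep difference ran from −0.54 to 0.28 with a median of −0.06. The most negative value belonged to ENSRNOG00000054809. The rule asks for a low level in both sublayers, so a like size is partly built in. A test of whether the change with epilepsy differs between sublayers, edgeR's quasi-likelihood test over the 12 libraries with animal as a term, called 0 of the 50 members and 0 of 14791 genes tested (0%). At an unadjusted p below 0.05 it held 5 members, against 976 genes or 6.6% of all tested. The rule used the change with epilepsy in both sublayers, and the test called 0 genes in all. No likeness of the sublayers is therefore read from these counts.

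**Figure D3:**
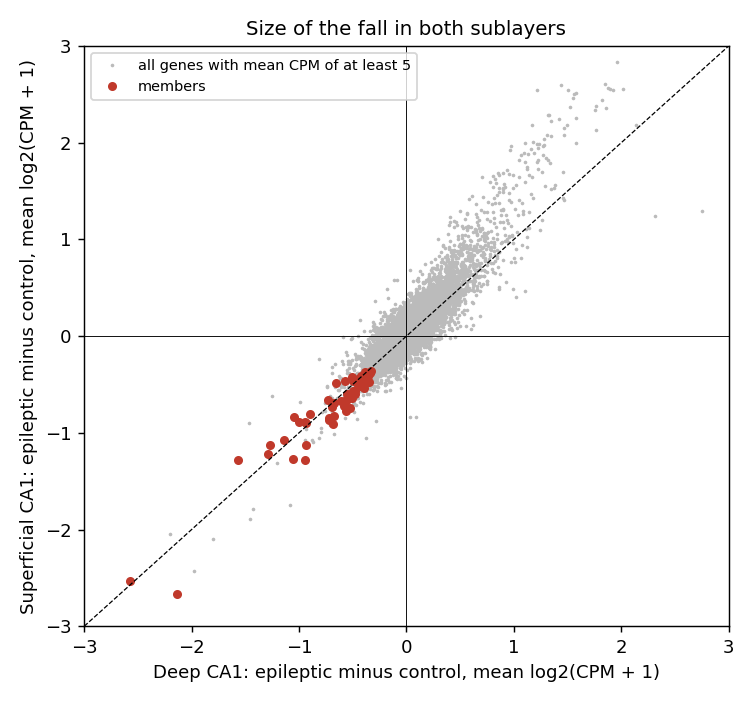
Difference in mean log2(CPM + 1), epileptic minus control, in deep (horizontal) and superficial CA1 (vertical) for 10910 genes with a mean of at least 5 CPM (grey; 13 lie outside the axes) and the 50 members (red); the dashed line marks equal differences. The members lie along the dashed line, with 2 set apart below −2 on both axes.

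The rule's requirements were rare among genes of this level. Every epileptic library lay below every control library in 9.25% of the 10923 genes in deep, 12.3% in superficial and 5.18% (566 genes) in both sublayers at once. The rule kept 50 of them, or 0.458% of all genes of at least 5 CPM. The reverse pattern without overlap in both sublayers was seen in 514 genes (4.71%), and a mirrored rule for raised genes kept 64. At the fold limit, the 3 members just inside had a smallest gap between lowest control and highest epileptic library of 1.201 to 1.203, and the 3 genes just outside one of 1.196 to 1.1999. Only 4 genes met all other requirements and missed the SD limit, with SDs of 1.12 to 1.40 in the more variable sublayer, while the largest SD of a member was 0.65. At the limit on level, the member of lowest mean had 5.77 CPM, and the highest of the genes that missed only this limit had 4.46 CPM.

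In a test of each gene in edgeR without a block, 3 epileptic against 3 control rats, 0 of the 50 members passed in deep CA1, where 0 of 14261 genes (0%) passed. In superficial CA1, 1 member passed, ENSRNOG00000054809, and 2 of 14321 genes (0.014%) passed in all. At an unadjusted p below 0.05 all 50 members were included in each sublayer, against 13.7% of all genes in deep and 18.9% in superficial CA1. The members were chosen on these same values, so nothing is read from these counts. With the replicate number as a block, 33 members and 239 genes (1.68% of all tested) passed in deep CA1. That number joins different rats across conditions and is not a pairing in the design, and the members' count again rests on the values used to choose them. The single superficial call was lost without control animal 1, 2 or 3 (edgeR adjusted p = 0.203, 0.221 and 0.188), where 0 genes passed in all. It was kept without epileptic animal 1, 2 or 3. These fits again use the values that chose the member.

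The rule was also applied without 1 animal, and the genes it then took were read in that animal. Without epileptic animal 1 the rule took 180 genes, and 116 of them (64.4%) lay below every control library in both sublayers of animal 1. Of all genes with the same minimum level, 15.5% did so. Without animal 2 it took 60 genes, of which 56 (93.3%) lay below every control library in animal 2, against 24.9% of all genes. Without animal 3 it took 126 genes, of which 92 (73.0%) did so in animal 3, against 28.5% of all genes. When a control animal was left out, 94.4 to 98.4% of the 63 to 72 genes taken lay above every epileptic library in that animal, against 11.7 to 15.1% of all genes. The genes taken without epileptic animals 1, 2 and 3 included 49, 48 and 49 of the 50 members. Those taken without a control animal included all 50. By the rule, every member lies past all libraries of the other condition, so these shares are partly fixed by the set itself. All 6 choices share most of their libraries, and the libraries of the other condition that a left-out animal is read against also took part in the choice, so the shares are a description without a test.

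**Figure D4:**
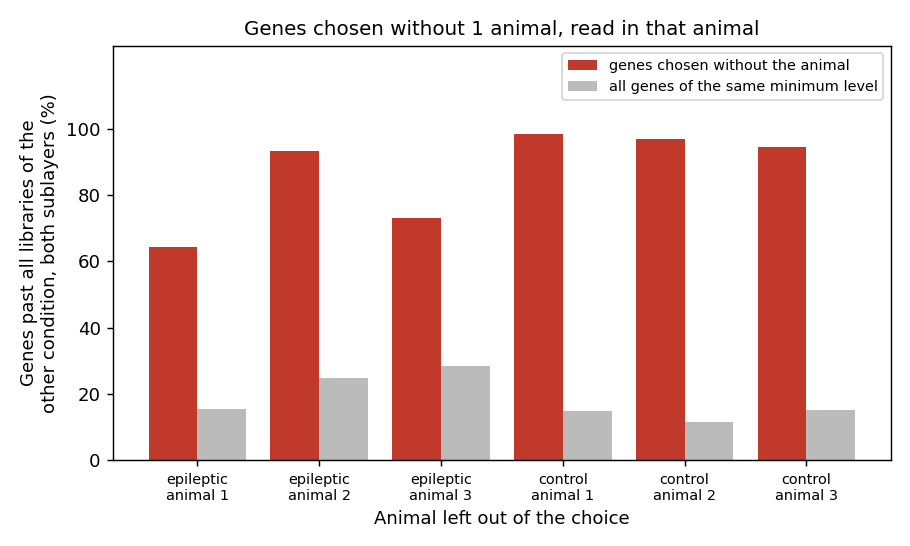
For each of the 6 animals, the percentage (bars from 0) of genes that lay past every library of the other condition in both sublayers of that animal, among genes chosen by the rule without it (red) and among all genes of the same minimum level (grey). The red bars run from 64.4 to 98.4% and the grey bars from 11.7 to 28.5%.

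The choice in 1 sublayer was also read in the other. The rule applied to deep libraries alone took 87 genes, and 80 of these (92.0%) had no overlap between epileptic and control libraries, in the same direction, in superficial CA1, against 12.3% of all genes. Applied to superficial libraries alone it took 124 genes, 103 of which (83.1%) did so in deep CA1, against 9.25% of all genes. Every one of these 87 and 124 genes had a lower epileptic mean in the sublayer not used. Over all genes that share was 47.6% in superficial and 51.0% in deep CA1. The 50 members are among the genes of each choice and meet this by the rule. Both sublayers come from the same rats, so this repeats the measurement and adds no animals.

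The rule makes no use of the ratio between the sublayers, and this ratio was tested within animals. The rule does limit the spread among epileptic libraries, and the test takes a gene's spread from control and epileptic libraries together. The number of calls may therefore not be independent of the choice. In control rats 14 of the 50 members (28%) differed between superficial and deep CA1 by edgeR's quasi-likelihood test with animal as a term, against 8.44% of 14791 genes tested and 10.5% of those with at least 5 CPM. The members were mostly higher in the superficial sublayer, 12 of the 14, where 4.26% of all genes tested were called (5.45% of those with at least 5 CPM), while 2 were higher in the deep sublayer, where 4.18% were called (5.03%). In epileptic rats 16 members (32%) differed, against 10% of all genes and 12.1% of those with at least 5 CPM. Of these, 10 were higher in superficial CA1 (5.04% of all genes, 5.88% of those with at least 5 CPM) and 6 higher in deep CA1 (5% and 6.23%). Called in both conditions were 9 members as higher in superficial and 2 as higher in deep CA1, and 0 members were called in opposite directions. The matching numbers over all genes were not counted, so nothing about the members is read from these.

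Counting only the order within each animal gave a similar picture in controls. The superficial library lay above the deep one in all 3 control animals in 24 of the 50 members, against 22.1% of the 10923 genes, and below it in 14 members, against 30.6% of the genes. In epileptic animals the corresponding counts were 18 members against 23.1% of genes and 15 members against 22.1%. The median over members of the superficial minus deep difference in log2(CPM + 1) was 0.09 in controls and −0.01 in epileptic rats, and the medians over all genes were −0.02 and 0.01. The members' median SD between control animals, 0.07 in deep and 0.10 in superficial CA1, stood beside 0.10 in both sublayers over all genes, and their median level was higher, as given above. The part of level and spread in the number of calls was not tested.

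ENSRNOG00000054809 had the largest superficial excess of any member called in controls, with superficial minus deep differences in log2(CPM + 1) of 0.78, 1.02 and 0.96 in control animals 1, 2 and 3. The fitted log2 fold change was 1.02 (SE 0.12, edgeR adjusted p = 8.531e-05). In epileptic animals the differences were 0.62, 0.39 and 0.14, higher in superficial in 3 of 3, and the fitted log2 fold change of 0.57 (SE 0.22) did not pass (edgeR adjusted p = 0.1058). That call was made without epileptic animal 3 (log2 fold change 0.75, edgeR adjusted p = 0.0491). It was not made without epileptic animal 1 or 2 (log2 fold change 0.39 and 0.60, edgeR adjusted p = 0.368 and 0.300). The fold changes of 1.02 in controls and 0.57 in epileptic rats were not shown to differ. Their own difference of −0.45 (SE 0.25) had an edgeR adjusted p of 0.8301.

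ENSRNOG00000021855 also had its higher level in superficial CA1, and kept that order at the lower levels of epileptic rats. Its levels were 38.8, 33.6 and 43.0 CPM in deep and 53.2, 59.9 and 69.2 CPM in superficial libraries of control animals 1, 2 and 3. In epileptic animals 1, 2 and 3 it had 11.0, 11.9 and 25.7 CPM in deep and 21.3, 17.7 and 43.1 CPM in superficial libraries. The superficial level was the higher in 6 of 6 animals, with a log2 fold change of 0.70 in controls (SE 0.08, edgeR adjusted p = 0.0001156) and 0.76 in epileptic rats (SE 0.10, edgeR adjusted p = 0.0002045). Its epileptic levels were the most variable among the members, with an SD of log2(CPM + 1) of 0.64 in deep and 0.65 in superficial CA1, and animal 3 was the highest in each sublayer.

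The reverse order was seen in ENSRNOG00000019422. It had 304, 369 and 395 CPM in deep and 206, 281 and 287 CPM in superficial libraries of control animals 1, 2 and 3. In epileptic animals it had 141, 146 and 239 CPM in deep and 80.7, 102 and 139 CPM in superficial libraries. The deep level was the higher in 6 of 6 animals, with log2 fold changes, superficial over deep, of −0.44 in controls (SE 0.06, edgeR adjusted p = 0.0003771) and −0.69 in epileptic rats (SE 0.06, edgeR adjusted p = 1.106e-05). The difference of −0.26 between these (SE 0.09) did not pass (edgeR adjusted p = 0.5906).

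ENSRNOG00000012181 was likewise higher in deep CA1 in 6 of 6 animals. Control animals 1, 2 and 3 had 116, 115 and 114 CPM in deep and 81.6, 66.0 and 84.4 CPM in superficial libraries, and epileptic animals had 63.9, 44.2 and 73.1 CPM in deep and 23.1, 27.8 and 47.0 CPM in superficial libraries. The log2 fold change was −0.54 in controls (SE 0.13, edgeR adjusted p = 0.03244) and −0.91 in epileptic rats (SE 0.14, edgeR adjusted p = 0.004127). The call in controls was lost without control animal 1, 2 or 3 (edgeR adjusted p = 0.153, 0.239 and 0.114) and that in epileptic rats was kept without any 1 animal.

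The order between the sublayers was the same in both conditions for most members, as it was for most genes. Differences with epilepsy of like size in both sublayers, which the rule partly builds in, leave that order unchanged. The mean sublayer difference had the same sign in control and epileptic rats in 42 of 50 members (84%), against 73.4% of the 10923 genes. It was superficial-higher in all 6 animals in 16 members (32%) and deep-higher in all 6 in 10 members (20%), against 11.7% and 13.5% of the genes. In none of the 50 members did every control animal show one order and every epileptic animal the opposite. That pattern was also rare over all genes, at 1.91%, so its absence in 50 members says little. The 13 members called higher in superficial CA1 in either condition had median differences with epilepsy of −0.58 in deep and −0.66 in superficial libraries, and the 6 called higher in deep CA1 had −0.62 and −0.75. The 31 called in neither had −0.56 and −0.66. The rule set the same limit for all 3 classes, and a difference between them was not tested. Of the 9 members at least 2-fold lower in both sublayers, 5 were called in a sublayer comparison. The share of all genes called in either comparison was not counted, so nothing is read from these 5.

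**Figure D5:**
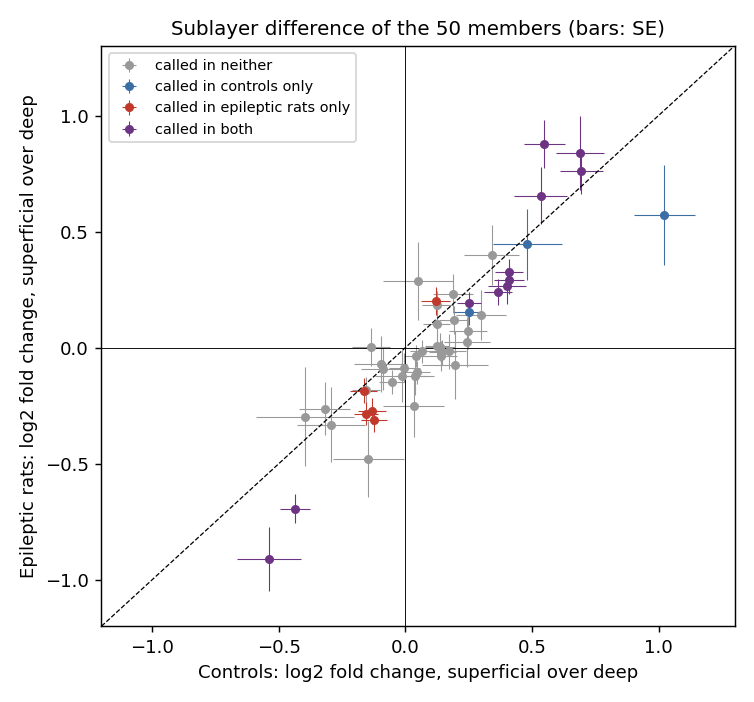
Fitted log2 fold change, superficial over deep, in control (horizontal) and epileptic rats (vertical) for the 50 members, with SE bars; colour shows in which condition edgeR called the difference, and the dashed line marks equality. The 9 members called higher in superficial in both conditions lie at the upper right and the 2 called higher in deep in both at the lower left.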

How the data were processed

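The deposited values are raw counts, whole numbers of reads per Ensembl gene identifier in 1 table per library, as the authors deposited them. Per the submitters' processing notes, the build was Rnor_6.0 and the tools were HTSeq 0.6.1, STAR 2.5.0c, SAMtools 0.1.19 and FastQC 0.11.3. Settings and strand use are not given in the sources used here. Overlapping, antisense and near-identical genes may therefore share reads. The 5 summary tallies entered neither library sizes nor tests.

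CPM was computed without ENSRNOG00000043866 and ENSRNOG00000030478, and log2 values add a pseudocount of 1. Tests used R 4.3.3 and edgeR 4.0.16 (filterByExpr, minimum count 10; TMM; robust quasi-likelihood; Benjamini-Hochberg over all genes tested, threshold 0.05). The SE is the absolute log2 fold change over the square root of F. On simulated counts for the sublayer difference in controls (14588 genes), 72% of 1.5-fold and 83% of 2-fold changes were recovered, and 4.32% of the calls were false. For epilepsy in deep CA1 (14129 genes) 26% and 65% were recovered, with 11.65% of the calls false. For epilepsy in superficial CA1 (14150 genes) 20% and 59% were recovered, with 12.2% of the calls false. In both epilepsy simulations the false share lay above the threshold of 0.05. Counts were drawn independently for each gene and library, with no deviation shared within an animal or across the genes of a library. These rates need not hold for the real libraries. Alternatives used DESeq2 1.42.0, other scalings, filters and limits, and left out each animal.

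Deviations from group means of the deep and superficial library of a number correlated at 0.386 to 0.814 in 6 of 6 pairs, and the labels' protocols take both sublayers from the same brains, so the animal was a term. Across conditions a number joins different rats. Deviations then correlated at 0.126 to 0.288 in deep, where the block is given beside the result, and at −0.0261 to 0.252 in superficial CA1. Replicates of a group were not duplicates (chi-square per gene 7.29 to 124).

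Members and gene lists were chosen with earlier results of these data known. The lists need symbols and were not run. The rule for named genes ranked members by the weaker sublayer difference and by sublayer fold change. Lacking symbols, at most 2 identifiers per direction are named in a comparison, and the other members are given by counts and ranges.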

Additional observations from a re-analysis of the deposited data

How the results depend on the processing

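The number of members moved with the limits of the rule: 561 genes met it with a fold limit of 1.0 and 4 with 1.5, 87 in deep and 124 in superficial libraries alone, and 60 to 180 without 1 animal (180 without epileptic animal 1, 126 without epileptic animal 3), with 48 to 50 of the 50 members among the latter. Leaving out an animal can only loosen the fold limit, so a member could be lost only through the SD or level limit. With no identifier left out of the sum it was met by 138 genes, 47 of the 50 among them, and the median of all genes then moved to −0.17 in deep and −0.13 in superficial CA1. It was met by 55 genes (46 shared) with TMM scaling, 54 without the SD limit, 67 from 1 CPM and 42 from 10 CPM. Without 1 animal, 9 to 23 members were called between sublayers in controls (23 and 22 without epileptic animals 1 and 3, where 13.3% and 14% of all genes were called; 10, 9 and 10 without control animals 1, 2 and 3, where 2.81%, 2.76% and 2.79% were) and 11 to 22 in epileptic rats (22 without epileptic animal 3, 11 without epileptic animal 2, at 15% and 3.59% of all genes). With no replicate block 0 members were called in either condition, at 5 genes each of all tested. DESeq2 called 12 members in controls and 13 in epileptic rats, against 5.51% and 5.48% of all genes. With no low-count filter edgeR called 21 in each, against 8.06% and 8.99% of all genes.

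Over all genes, the sublayer difference in controls gave 1248 calls, 815 with DESeq2, 1910 with no filter and 416 to 2071 without 1 animal. In epileptic rats it gave 1484, 811 with DESeq2 and 536 to 2217 without 1 animal. The interaction gave 2 calls with DESeq2, 178 with no filter and 0 to 84 without 1 animal. Epilepsy in deep CA1 gave 239 calls with the replicate block, 8 with RLE scaling, 376 with DESeq2, 103 with no filter and 0 to 552 without 1 animal. In superficial CA1 it gave 25 with the replicate block (0.175% of all genes, 10 members among them), 885 with DESeq2, 130 with no filter and 0 to 1443 without 1 animal. Read in the left-out animal under a fold limit of 1.5, chosen after seeing the data, the share past the other condition was 100% for epileptic animal 2, 94.1% for epileptic animal 3, and 87.5%, 100% and 83.3% for control animals 1, 2 and 3, over 5 to 17 genes. It stayed at 64.7% for epileptic animal 1. The cause was not tested for any of these. Of the comparisons of named genes under these alternatives, 0 reversed.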
